A study of Homo sapiens with 6 samples.

Results

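Mitosis divides the duplicated chromosomes between 2 daughter cells, and most of its machinery is transcribed anew in each cell cycle, with the mRNAs peaking in G2 and M phase. Cyclin B and CDK1 drive entry into mitosis, condensin and topoisomerase II compact the chromosomes, kinetochores attach them to the spindle, the spindle checkpoint holds back the anaphase-promoting complex until every chromosome is attached, and the central spindle and contractile ring then split the cell. Attachment of the small protein SUMO to other proteins passes through a single E2 enzyme, UBC9. Several mitotic proteins, among them topoisomerase II, Aurora B, borealin and BUBR1, are known SUMO substrates, which is background here because the data hold mRNA levels and no protein or SUMO measurement.

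The 45 genes described here were listed by symbol for their roles in mitosis and chromosome segregation, and all 45 were found among the 58174 genes in each file. T24, a line derived from a human bladder carcinoma, was measured by RNA-seq in 3 samples with a scrambled control shRNA (shRNA-NC) and in 3 with an shRNA against UBC9 (shRNA-UBC9). The UBC9 hairpin, a single one, was cloned into pLKO.1, delivered by lentivirus and selected with puromycin, and the vector of the control is not given in the sources used here. With 1 hairpin, its own effects and the loss of UBC9 cannot be told apart. Neither synchronisation of the cells before RNA extraction nor separate cultures behind the replicates are stated in the sources used here, so p-values measure the spread between these samples, which may be technical.

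All values are RPKM, the authors' reads per kilobase of gene scaled to the mapped reads of the sample, so levels of different genes can be set side by side. Of the 58174 genes, 12428 reached 0.5 RPKM in 3 or more samples, and these were compared by limma on the log2(RPKM + 0.1) scale with Benjamini-Hochberg adjustment over all of them. A gene passed the test with an adjusted p below 0.05 and was called a DEG when its log2 fold change also exceeded 1 in size. All 45 mitosis genes were tested. The sequencing depth relative to shRNA-NC replicate 1, estimated from the spacing of the lowest values, lay between 0.945 and 1.21, and the absolute depth is unknown. KRT7, KRT8, KRT18 and KRT19 were expressed in every sample, while KRT5 and KRT20 were listed at 0 in all 6, TP63 and CDH1 stayed at or below 0.0045 RPKM, and the uroplakins UPK1A, UPK1B, UPK2 and UPK3A stayed at or below 0.13 RPKM. Of the 15 urothelial and epithelial markers, 7 were tested. The test was passed with lower levels in shRNA-UBC9 by 6 of the 7 (85.7%, against 18.0% of all genes tested). Their log2 fold changes ran from -2.15 for PPARG to -0.79 for GATA3. EPCAM went the other way, at 0.996, and did not pass the test (limma adjusted p = 0.0984). The median of the 7 was -0.93, against -0.62 for the 45 mitosis genes. Of the markers of other cell types, CD68 and COL1A1 were higher and CDH5 and ACTA2 lower in shRNA-UBC9, CD14 did not pass the test, and the others were not expressed highly enough to be tested, with PTPRC and PECAM1 at or below 0.102 RPKM. The part of these marker changes in the results was not tested.

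Mitosis genes were lower after knockdown of UBC9 as a whole list. All 45 had a lower mean in shRNA-UBC9, 43 passed the test in that direction and none passed it in the other, whereas 18.0% of all 12428 genes tested passed the test with lower levels. The median log2 fold change of the 45 genes was -0.62, or 34.7% lower, against 0.005 over all genes tested. The log2 fold changes ran from -1.30 for KIF20A to -0.29 for TTK, with standard errors (SE) between 0.083 and 0.20. The groups did not overlap for any of the 45 genes, with all shRNA-UBC9 samples below all shRNA-NC samples, which was true of 25.4% of all genes tested. The change was moderate in size: KIF20A, NUSAP1, SPC24 and TOP2A were DEGs, 4 of 45 or 8.89%, against 2.70% of all genes tested that were DEGs with lower levels. In bulk RNA, fewer cells in G2 and M phase and less of these mRNAs per cell cannot be told apart.

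**Figure D1:**
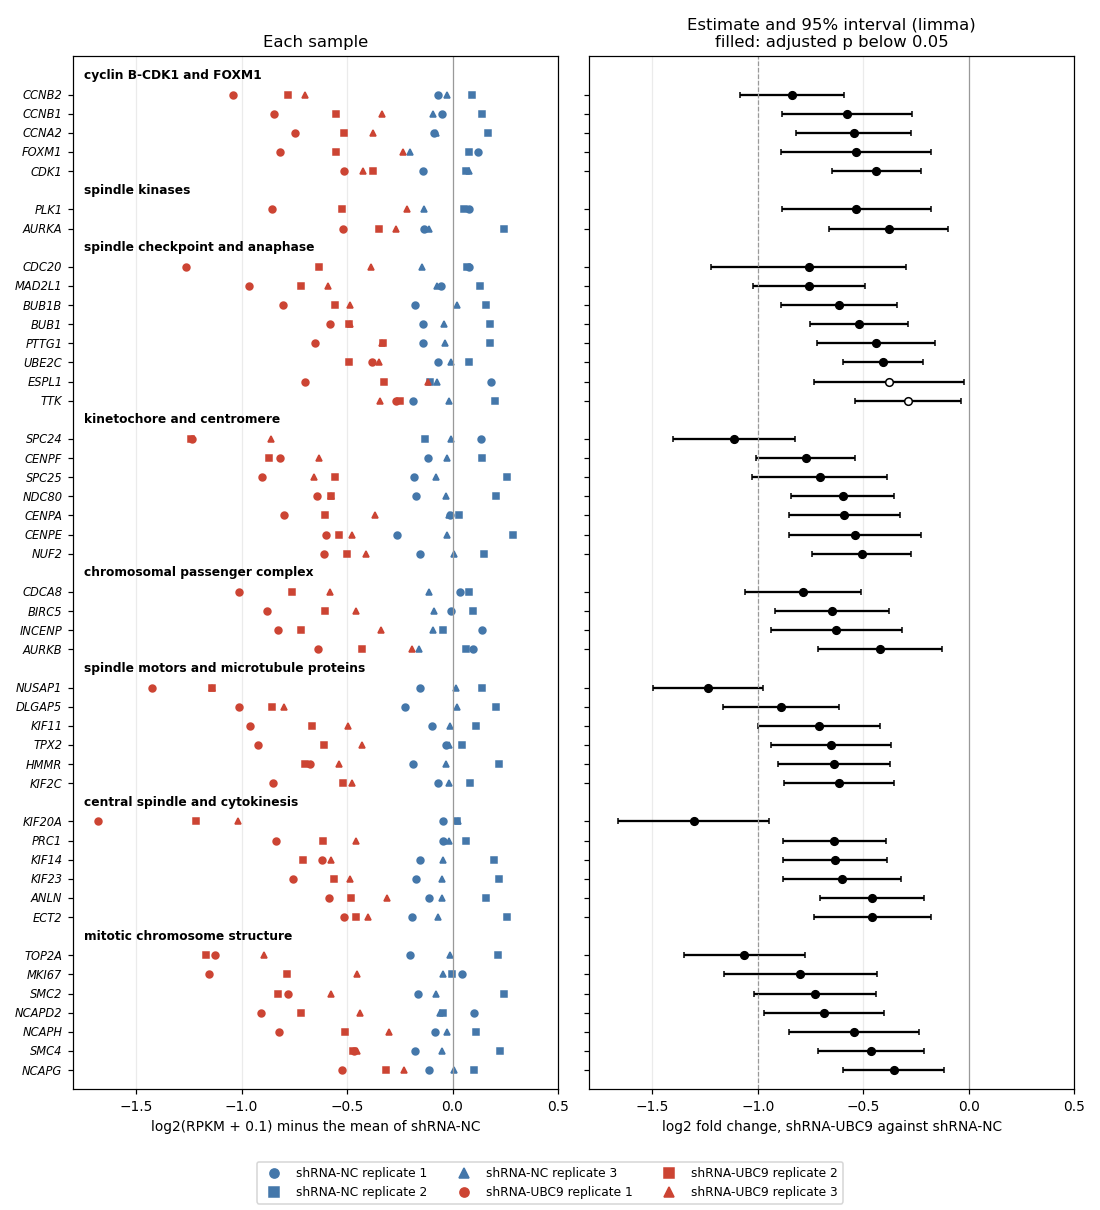
Left, log2(RPKM + 0.1) of each mitosis gene in each of the 6 samples, minus the mean of the 3 shRNA-NC samples. Right, the log2 fold change with its 95% interval from limma, with the dashed line at -1 and open symbols for TTK and ESPL1, which did not pass the test. Each of the 45 genes has its 3 red shRNA-UBC9 symbols left of its 3 blue shRNA-NC symbols.

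The shRNA-UBC9 samples were not equally low. Taken over the 45 genes, the median difference from the shRNA-NC mean was -0.82 on the log2 scale in shRNA-UBC9 replicate 1, -0.56 in replicate 2 and -0.46 in replicate 3. In the shRNA-NC samples it was -0.10, 0.13 and -0.03. Replicate 1 was the lowest shRNA-UBC9 sample for 36 of the 45 genes and replicate 3 the highest for 39, and shRNA-NC replicate 2 was the highest control for 34. The relative depth was 1.21 in shRNA-UBC9 replicate 1 and 0.945 in replicate 3, and its part in the spread was not tested. Without shRNA-UBC9 replicate 1 the median log2 fold change of the list was -0.52, and 39 of the 45 genes passed the test.

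The promoters of many of these genes held sequence elements known from genes of G2 and M phase. The elements were not used to list the genes, but a list of mitosis genes can be rich in them without regard to the knockdown. Many genes of G2 and M phase carry a cell cycle genes homology region (CHR), to which the MuvB complexes bind, together with CCAAT boxes, to which NF-Y binds. RefSeq promoters (GRCh38.p14), from 250 bases before to 50 bases after a start site, were found for 39 of the 45 genes, 6 of them with 2 start sites. They were searched on both strands for TTTGAA or TTCGAA as the CHR and for CCAAT. Other variants of the CHR were not searched for, so a gene without a match may still hold one. A match is a description of the letters, not evidence of binding. AURKA, BIRC5, FOXM1, TPX2, TTK and UBE2C had no entry.

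A CHR match was found for 30 of the 39 genes (76.9%), against 15.1% of the 9180 tested genes with a promoter and 19.5% of all 27305 genes in the table. Within the stretch from 60 bases before to 50 bases after the start site, 26 of the 39 had a match (66.7%), against 5.14% of the tested genes. A CCAAT box was found for 30 of the 39 (76.9% against 43.5% of tested genes), 2 or more for 20 (51.3% against 16.4%, counting overlapping matches on both strands separately) and both elements for 23 (59.0% against 6.45%). Of 100 promoters of further mitotic genes 54 held a CHR match (54.0%). In 36 promoters of DNA replication genes, which act in the preceding S phase, a CHR match was found in 3 (8.33%) and a CCAAT box in 22 (61.1%). Among the mitosis genes the median log2 fold change was -0.64 for the 30 with a CHR match and -0.55 for the 9 without, and the ranges overlapped.

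The 130 bases before the start site are shown for the 4 DEGs, for CCNB2 with the regular array of both elements, and for PLK1 and ESPL1 as genes that fell less or missed the test. Each is written 5′ to 3′ along the transcribed strand, with CHR and CCAAT matches in capitals.
KIF20A, chr5:138178982-138179111, plus strand: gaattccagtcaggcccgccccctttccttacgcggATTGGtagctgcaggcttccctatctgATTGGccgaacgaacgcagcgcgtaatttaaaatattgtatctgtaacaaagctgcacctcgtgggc
NUSAP1, chr15:41332751-41332880, plus strand: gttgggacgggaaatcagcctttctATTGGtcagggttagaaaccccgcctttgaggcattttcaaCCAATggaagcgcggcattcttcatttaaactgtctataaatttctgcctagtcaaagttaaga
SPC24, chr19:11155783-11155912, minus strand: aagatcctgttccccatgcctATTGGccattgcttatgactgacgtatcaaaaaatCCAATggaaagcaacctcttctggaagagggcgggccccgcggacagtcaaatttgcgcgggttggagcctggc
TOP2A, chr17:40417897-40418026, minus strand: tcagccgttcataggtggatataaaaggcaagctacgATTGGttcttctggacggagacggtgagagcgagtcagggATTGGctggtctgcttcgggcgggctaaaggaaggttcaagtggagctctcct
CCNB2, chr15:59105016-59105145, plus strand: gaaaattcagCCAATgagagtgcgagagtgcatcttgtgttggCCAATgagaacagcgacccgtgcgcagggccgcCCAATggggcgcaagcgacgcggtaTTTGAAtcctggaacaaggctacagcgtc
PLK1, chr16:23678759-23678888, plus strand: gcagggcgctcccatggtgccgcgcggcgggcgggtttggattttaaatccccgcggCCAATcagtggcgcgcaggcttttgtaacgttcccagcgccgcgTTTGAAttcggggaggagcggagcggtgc
ESPL1, chr12:53268169-53268298, plus strand: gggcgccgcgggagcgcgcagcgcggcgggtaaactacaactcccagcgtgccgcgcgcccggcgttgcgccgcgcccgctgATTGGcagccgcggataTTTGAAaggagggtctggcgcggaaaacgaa

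All 4 DEGs had at least 2 CCAAT boxes in this stretch. KIF20A and SPC24 had no match to TTTGAA or TTCGAA in the whole window, which does not show that they lack a CHR of another spelling. NUSAP1 had a CHR match beginning at position 14 of the transcript. TOP2A had matches further out, beginning at -151 and -194 from the start site. CCNB2 and PLK1 each had a CHR beginning at -29 and ESPL1 at -31.

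**Figure D2:**
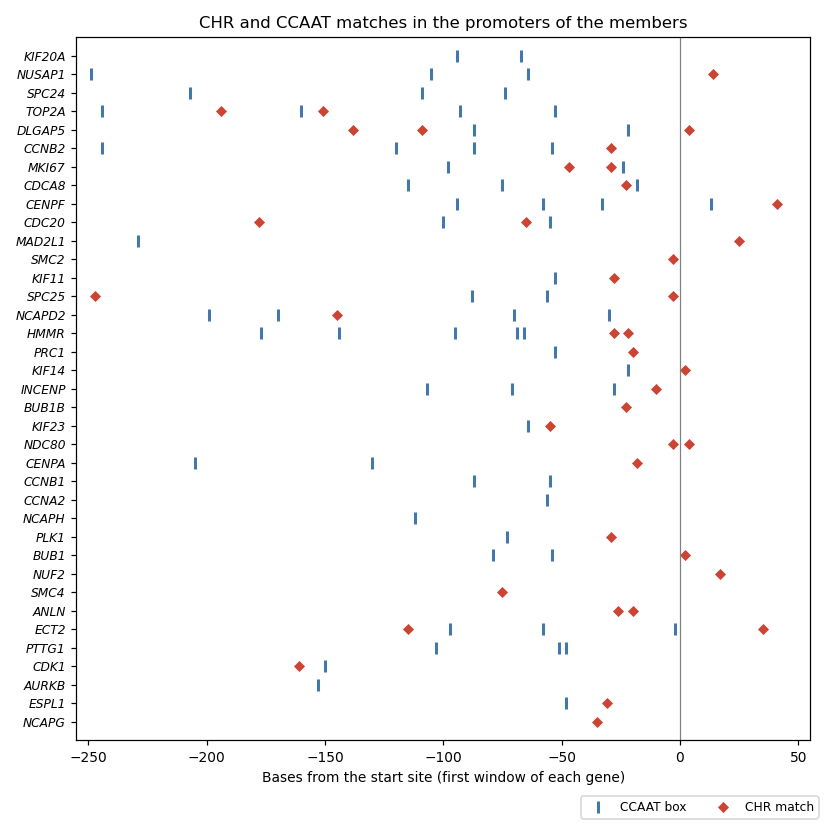
Positions of CHR matches (red diamonds) and CCAAT boxes (blue bars) from the start site in bases, for the 37 mitosis genes with any match, ordered from the largest fall in shRNA-UBC9 at the top. Where RefSeq gives 2 start sites, the window with the lower coordinate is drawn. Most CHR matches lie near the start site, with CCAAT boxes upstream of them.

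The cyclin and CDK1 genes that drive entry into mitosis fell together. All 5 genes of this role passed the test, with a median log2 fold change of -0.55. CCNB2, encoding cyclin B2, had 41.4, 46.3 and 42.7 RPKM in shRNA-NC and 21.0, 25.3 and 26.7 RPKM in shRNA-UBC9. Its groups were well apart, with a log2 fold change of -0.84 (SE 0.11, limma adjusted p = 0.000857). CCNB1, the other B-type cyclin, was more abundant and fell less, from 123.0 ± 10.8 to 83.0 ± 14.5 RPKM (SD, n = 3 each). CCNA2, encoding cyclin A2, fell from 48.7 ± 5.1 to 33.4 ± 4.3 RPKM and CDK1 from 37.1 ± 3.1 to 27.3 ± 1.3 RPKM (SD, n = 3 each). FOXM1, a transcription factor that activates many genes of this phase, fell from 55.8 ± 6.6 to 38.8 ± 7.9 RPKM (SD, n = 3 each). The adjusted p of FOXM1 was 0.0277 and lay above 0.05 in 4 of the 6 fits that left out a sample, those without shRNA-NC replicate 1, shRNA-NC replicate 2, shRNA-UBC9 replicate 1 or shRNA-UBC9 replicate 2.

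Both spindle kinases passed the test, with smaller changes than most of the list. PLK1, which acts in centrosome maturation and kinetochore attachment, had 45.1, 44.4 and 38.9 RPKM in shRNA-NC and 23.6, 29.6 and 36.7 RPKM in shRNA-UBC9. Its highest knockdown sample was just below its lowest control (log2 fold change -0.53, SE 0.15, limma adjusted p = 0.0277). AURKA, encoding Aurora A, which acts at spindle poles, fell from 69.6 ± 10.6 to 53.2 ± 4.7 RPKM (SD, n = 3 each), and with an adjusted p of 0.0413 it was the closest of the 43 genes to the threshold. PLK1 lost the call without shRNA-NC replicate 1 (adjusted p = 0.0873), shRNA-NC replicate 2 (0.0756) or shRNA-UBC9 replicate 2 (0.066), and AURKA kept it in 2 of 6 such fits, those without shRNA-NC replicate 1 or shRNA-UBC9 replicate 3.

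**Figure D3:**
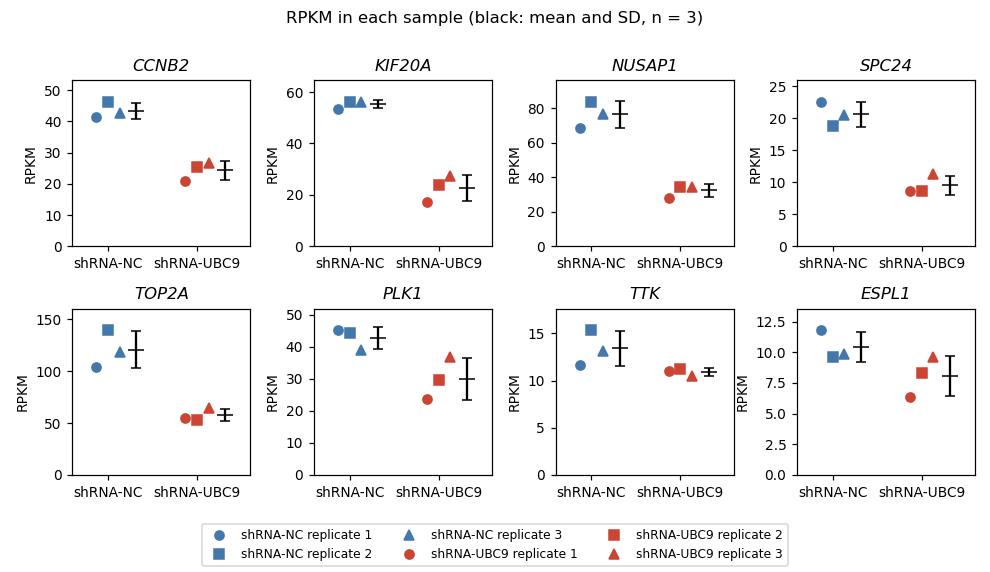
RPKM of CCNB2, the 4 DEGs among the mitosis genes, PLK1, TTK and ESPL1 in each of the 6 samples, with the mean and SD of each group in black (n = 3). CCNB2 and the 4 DEGs are far apart between the groups, whereas the nearest shRNA-UBC9 samples of PLK1, TTK and ESPL1 lie just below the lowest shRNA-NC sample.

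Of the 8 genes of the spindle checkpoint and anaphase, 6 passed the test with lower levels, and TTK and ESPL1 did not pass it. MAD2L1, the checkpoint protein MAD2, had 14.1, 16.1 and 13.9 RPKM in shRNA-NC and 7.47, 8.89 and 9.70 RPKM in shRNA-UBC9 (log2 fold change -0.76, SE 0.12, limma adjusted p = 0.00194). CDC20, the coactivator of the anaphase-promoting complex that the checkpoint holds back, had the highest level in shRNA-NC of all 45 genes, with 162.8, 161.7 and 139.4 RPKM, and 64.2, 99.4 and 118.1 RPKM in shRNA-UBC9. Its wide spread in shRNA-UBC9 gave it the largest standard error of the list, 0.20, beside a log2 fold change of -0.76 (adjusted p = 0.0198). Without shRNA-NC replicate 1 or 2 its adjusted p was 0.0672 or 0.0585. The checkpoint kinase gene BUB1 fell to 69.3% of its shRNA-NC mean and BUB1B, encoding BUBR1, to 65.1%. UBE2C, the ubiquitin-conjugating enzyme of the anaphase-promoting complex, fell to 75.5% and PTTG1, encoding securin, to 73.8%. PTTG1 missed the threshold without shRNA-NC replicate 2 (adjusted p = 0.071) or 3 (0.0636). It has closely related copies elsewhere in the genome, so its reads may be shared.

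The 2 genes that did not pass the test were also lower in every knockdown sample. TTK, encoding the checkpoint kinase MPS1, had 11.7, 15.3 and 13.2 RPKM in shRNA-NC and 11.03, 11.2 and 10.5 RPKM in shRNA-UBC9, and the spread lay mostly among the controls. Its log2 fold change was -0.29 with a 95% interval from -0.54 to -0.03 (limma adjusted p = 0.0728). ESPL1, encoding separase, the protease that cuts cohesin at anaphase, had 11.8, 9.62 and 9.86 RPKM in shRNA-NC and 6.35, 8.27 and 9.58 RPKM in shRNA-UBC9. Both groups were spread, with SDs of 1.19 and 1.62 RPKM (n = 3 each), and shRNA-UBC9 replicate 3 lay just below the lowest control. The log2 fold change was -0.38 with an interval from -0.74 to -0.02 (adjusted p = 0.0882). Without shRNA-NC replicate 1 TTK passed the test (adjusted p = 0.0353), and without shRNA-UBC9 replicate 3 ESPL1 did (0.0316).

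All 7 kinetochore and centromere genes fell, with a median log2 fold change of -0.60. SPC24, a subunit of the NDC80 complex that binds microtubules at the kinetochore, had 22.6, 18.8 and 20.5 RPKM in shRNA-NC and 8.66, 8.64 and 11.3 RPKM in shRNA-UBC9. It was a DEG, with a log2 fold change of -1.11 (SE 0.13, limma adjusted p = 0.000516) and the 256th lowest value of the 12428 genes. SPC25, its direct partner in that complex, had 13.01, 17.7 and 14.0 RPKM in shRNA-NC and 7.85, 10.005 and 9.35 RPKM in shRNA-UBC9. The other subunits NDC80 and NUF2 fell to 65.6% and 70.1% of their shRNA-NC means. CENPF, a large outer kinetochore protein, had 34.4, 41.1 and 36.6 RPKM in shRNA-NC and 21.1, 20.4 and 24.0 RPKM in shRNA-UBC9, with little spread in either group (log2 fold change -0.77, SE 0.10, adjusted p = 0.000975). CENPA, the histone H3 variant that marks centromeres, fell from 20.2 ± 0.4 to 13.5 ± 2.0 RPKM, and CENPE, a kinetochore motor that binds SUMO, from 13.8 ± 2.7 to 9.35 ± 0.41 RPKM (SD, n = 3 each). CENPE narrowly missed the threshold without shRNA-NC replicate 3 (adjusted p = 0.0505).

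The 4 genes of the chromosomal passenger complex, which corrects faulty attachments and later moves to the central spindle, all fell. CDCA8, encoding borealin, had 47.2, 48.6 and 42.6 RPKM in shRNA-NC and 22.8, 27.1 and 30.7 RPKM in shRNA-UBC9 (log2 fold change -0.79, SE 0.12, limma adjusted p = 0.00186). BIRC5, encoding survivin, had 36.8, 39.5 and 34.8 RPKM in shRNA-NC and 20.1, 24.3 and 26.9 RPKM in shRNA-UBC9. INCENP, the scaffold, fell to 65.1% of its shRNA-NC mean. AURKB, the kinase of the complex, fell least, to 75.1%, with 36.0 RPKM in its lowest control and 35.3 RPKM in its highest knockdown sample. Its adjusted p was 0.0336, and it kept the call only without shRNA-NC replicate 3 or without shRNA-UBC9 replicate 3 among the 6 fits that left out a sample.

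Among the spindle motors and microtubule proteins all 6 fell, and their median log2 fold change of -0.68 was among the largest of the 8 roles. NUSAP1, which bundles spindle microtubules around chromosomes, had 68.4, 83.7 and 76.9 RPKM in shRNA-NC and 28.2, 34.5 and 34.4 RPKM in shRNA-UBC9. With a log2 fold change of -1.24 (SE 0.11, limma adjusted p = 0.000208) it had the smallest p of the 45 genes. In GENCODE 44 another protein-coding gene on the same strand shares 81.4% of its exonic bases, so the division of these reads by the authors' counting is uncertain. DLGAP5, a spindle assembly protein, had 39.4, 53.0 and 46.6 RPKM in shRNA-NC and 22.7, 25.3 and 26.4 RPKM in shRNA-UBC9, and its log2 fold change was -0.89 (SE 0.12, adjusted p = 0.00111). KIF11, the motor that pushes spindle poles apart, had 40.8, 47.2 and 43.3 RPKM in shRNA-NC and 22.4, 27.5 and 30.9 RPKM in shRNA-UBC9. The knockdown samples were thus all below the lowest control by a clear margin for these genes. TPX2, the activator of Aurora A, was among the most abundant, with 121.2, 128.0 and 122.5 RPKM in shRNA-NC and 65.3, 81.2 and 91.9 RPKM in shRNA-UBC9. HMMR, a spindle pole protein, had 27.7, 36.9 and 30.9 RPKM in shRNA-NC and 19.7, 19.4 and 21.7 RPKM in shRNA-UBC9. KIF2C, a kinesin that depolymerises microtubules at centromeres, fell to 65.6% of its shRNA-NC mean.

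The central spindle and cytokinesis genes, all 6 of which fell, held the largest change of the list. KIF20A, the kinesin MKLP2 that carries the passenger complex to the central spindle, had 53.5, 56.1 and 56.2 RPKM in shRNA-NC and 17.1, 23.7 and 27.3 RPKM in shRNA-UBC9. Its log2 fold change was -1.30 (95% interval from -1.66 to -0.95, limma adjusted p = 0.000622), the 157th lowest of the 12428 genes. PRC1, which crosslinks the central spindle, had 57.4, 61.8 and 58.5 RPKM in shRNA-NC and 33.1, 38.6 and 43.1 RPKM in shRNA-UBC9, although another gene on the same strand shares 57.6% of its exonic bases in GENCODE 44. KIF14, which acts in cytokinesis, had 14.7, 18.7 and 15.8 RPKM in shRNA-NC and 10.6, 9.93 and 10.9 RPKM in shRNA-UBC9. Both were clearly apart between groups, with adjusted p-values of 0.00288 and 0.00294. KIF23, the motor subunit of centralspindlin, fell to 65.6% of its shRNA-NC mean, ANLN, encoding the contractile ring protein anillin, to 72.7% and ECT2, the activator of RhoA at the cleavage site, to 72.2%. ECT2 had an adjusted p of 0.0537 without shRNA-UBC9 replicate 2.

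The 7 genes of mitotic chromosome structure all fell, with a median log2 fold change of -0.69. TOP2A, topoisomerase II alpha, which untangles sister chromatids, had 104.2, 139.3 and 118.8 RPKM in shRNA-NC and 54.8, 53.3 and 64.4 RPKM in shRNA-UBC9. It was a DEG, with a log2 fold change of -1.06 (SE 0.12, limma adjusted p = 0.000583), although the log2 fold change was -0.96, short of the DEG cutoff, without shRNA-NC replicate 2. MKI67, the proliferation marker that coats mitotic chromosomes, had 81.4, 78.8 and 76.5 RPKM in shRNA-NC and 35.4, 45.7 and 57.5 RPKM in shRNA-UBC9. The condensin subunits SMC2 and NCAPD2 fell most of the 5. SMC2 had 19.4, 25.8 and 20.6 RPKM in shRNA-NC and 12.6, 12.2 and 14.6 RPKM in shRNA-UBC9. NCAPD2 had 79.9, 72.2 and 71.4 RPKM in shRNA-NC and 39.6, 45.2 and 54.95 RPKM in shRNA-UBC9. The log2 fold changes of these 2 were -0.73 and -0.69, against -0.46 for SMC4, -0.54 for NCAPH and -0.36 for NCAPG. NCAPG shares 33.7% of its exonic bases with LCORL on the opposite strand, and whether the counting used strand is not given in the sources used here. It lost the call without shRNA-NC replicate 2 or 3 or shRNA-UBC9 replicate 1 or 2, and NCAPH without shRNA-NC replicate 2 (adjusted p = 0.0501).

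Over the 45 genes, which shared the same 6 libraries, Pearson's r between mean log2 level and log2 fold change was -0.14 and Spearman's rho -0.13.

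The fall extended to other mitotic genes. Of 119 further genes of mitosis in 5 lists, 69 passed the test with lower levels (58.0%, against 18.0% of all genes tested) and 3 with higher levels (against 18.8%), and their median log2 fold change was -0.40. In mitotic entry and its transcription 25 of 28 had a log2 fold change below 0. The test was passed with lower levels by 20 and with higher levels by 1, and 4 were DEGs with lower levels. MYBL2, encoding B-MYB, the partner of MuvB in activating CHR genes, had a mean of 65.9 ± 8.7 RPKM in shRNA-NC and 30.8 ± 8.0 RPKM in shRNA-UBC9 (SD, n = 3 each). Its log2 fold change was -1.12 (limma adjusted p = 0.00301). The other DEGs of that list were PIMREG (deposited under its older symbol FAM64A) at -1.23, CDC25B, a phosphatase that activates CDK1, at -1.10, and CDCA3 at -1.03. The gene that passed with higher levels was LIN37, a MuvB subunit, at 0.41. It had 2.54 ± 0.04 RPKM in shRNA-NC and 3.41 ± 0.16 RPKM in shRNA-UBC9 (SD, n = 3 each). MASTL, at 0.42, narrowly missed the test (limma adjusted p = 0.0509), and CDC25A, at 0.13, did not pass it. The other MuvB genes in that list, which does not hold every subunit, were LIN9, LIN52 and LIN54. They had log2 fold changes of -0.19, -0.23 and -0.09 and did not pass the test.

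All 25 further kinesin, spindle and cytokinesis genes had a log2 fold change below 0, and 19 passed the test. The smallest p-values were those of STMN1 (log2 fold change -0.97), KIF15 (-0.98) and RACGAP1 (-0.73). Of 29 further kinetochore and centromere genes 27 were lower. The test was passed with lower levels by 17 and with higher levels by none. CENPM was a DEG at -1.15, while KNTC1 (-0.58), CENPU (-0.78) and CENPK (-0.69) had the smallest p-values. Of 16 cohesin, cohesion and condensin II genes 13 were lower. The test was passed with lower levels by 7, among them NCAPG2 (-0.74), RAD21 (-0.51) and SGO2 (-0.58), and with higher levels by none. The checkpoint and anaphase-promoting complex list held mostly constitutive subunits of that complex. Of its 21 genes 11 were lower, and 6 passed the test with lower levels (28.6%, against 18.0% of all genes tested). ANAPC15 (-0.54), ANAPC7 (-0.57) and CDC27 (-0.37) were among these. MAD2L1BP (0.31) and ANAPC13 (0.27, at the threshold with a limma adjusted p of 0.049998) passed it with higher levels (against 18.8% of all genes tested). The median log2 fold change was -0.11.

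DNA replication genes of S phase were the nearest group for comparison. Of 43, 42 had a log2 fold change below 0. The test was passed with lower levels by 22 (51.2%, against 18.0% of all genes tested) and with higher levels by none. The median log2 fold change was -0.43, and the 25.6% lower median compares with 34.7% for the 45 mitosis genes. TYMS, encoding thymidylate synthase, was a DEG, with a mean of 92.7 ± 9.2 RPKM in shRNA-NC and 46.4 ± 7.7 RPKM in shRNA-UBC9 (SD, n = 3 each). GINS4 and MCM6, which encode subunits of the replicative helicase, had log2 fold changes of -0.91 and -0.90. No test of the difference between the lists was made.

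**Figure D4:**
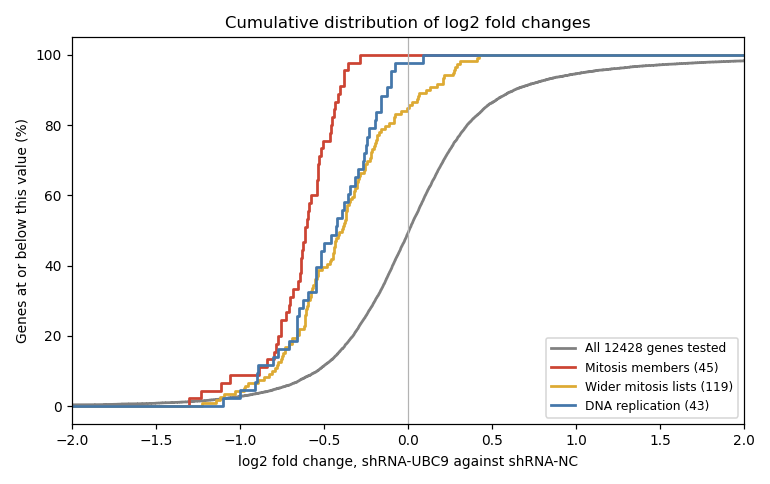
Cumulative distribution of log2 fold changes (shRNA-UBC9 against shRNA-NC) of all 12428 genes tested, the 45 mitosis genes, 119 further mitotic genes and 43 DNA replication genes. The curve of the mitosis genes lies furthest left over most of its range and reaches 100% before 0.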

How the data were processed

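T24 RNA-seq of 3 shRNA-NC and 3 shRNA-UBC9 samples was analysed. Per the paper's methods, adaptor-trimmed reads were aligned in the CLC Biomedical Genomics Workbench with its default settings (build hg38 in the submitters' processing notes). What the authors deposited is a file of RPKM for 58174 genes for each sample. The annotation release, strand and the handling of reads with several matches are not given in the sources used here. RPKM is not corrected for RNA composition, and absolute depth is unknown, so no counting interval was given.

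Genes that reached 0.5 RPKM in 3 or more samples were compared by limma 3.58.1 in R 4.3.3 (lmFit, eBayes with an intensity trend) on log2(RPKM + 0.1), a scale that understates changes of low genes. Every adjusted p is from limma with Benjamini-Hochberg adjustment over 12428 genes. An exact permutation test of 3 against 3 cannot go below 0.1. The scripts were tested on simulated data.

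The members and lists (roles, 5 wider mitosis lists, DNA replication, urothelial, leukocyte, endothelial and fibroblast or muscle markers) were written from general knowledge, with earlier results of these data known. The level of the targeted gene is not reported here. Values in every sample are given for the 20 members past the test with the largest changes and for the smallest p of each role. TTK and ESPL1, which missed the test, were added after their values were seen. From the other lists, DEGs and up to 3 further genes with the smallest adjusted p are named. LIN9, LIN37, LIN52, LIN54, MASTL, CDC25A, MAD2L1BP and ANAPC13 were added after their values were seen. Promoters are from RefSeq (GRCh38.p14) and exon overlaps from GENCODE 44. In that annotation 12 members have pseudogenes named after them and 6 share over 10% of exonic bases with another gene (NUSAP1, PRC1, NCAPG, SMC4, FOXM1 and PLK1). Python 3.11.15, pandas 2.3.3, numpy 2.4.6 and matplotlib 3.10.9 were used for tables and figures.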

Additional observations from a re-analysis of the deposited data

How the results depend on the processing

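All 45 mitosis genes had a log2 fold change below 0 in every one of 14 alternative fits: pseudocounts of 1 and 0.01, no filter on low values, an RPKM of at least 1 in all 6 samples, a fit without the intensity trend, median scaling, quantile normalization, a replicate block and each sample left out. Of the 43 that passed the test, 33 also passed in all 14, and AURKA, AURKB, CDC20, CENPE, ECT2, FOXM1, NCAPG, NCAPH, PLK1 and PTTG1 missed it in at least 1. The number that passed was 36 with no filter on low values, where 22896 genes were adjusted together, 44 with quantile normalization or median scaling, 41 without the trend, and between 35 (without shRNA-NC replicate 2) and 44 with a sample left out. The scalings shifted the median of all genes to -0.04, and the split of genes that passed the test changed from 2237 lower and 2339 higher to 2574 and 2050 with median scaling and to 2676 and 2046 with quantile normalization. KIF20A, NUSAP1 and SPC24 were DEGs in each of the 14 fits. TOP2A was one in all but the fit without shRNA-NC replicate 2, and DLGAP5 joined them without shRNA-NC replicate 1. Over all genes, 981 DEGs became 552 with a pseudocount of 1, and 552 when an RPKM of at least 1 in every sample was required. The 4576 genes past the test became between 3034 (without shRNA-NC replicate 3) and 4183 with a sample left out.

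Samples with the same replicate number did not deviate together (correlations of deviations from the group means of -0.37, 0.07 and -0.17 for numbers 1, 2 and 3). For pairs with different numbers the correlations ran from -0.32 to 0.53, the highest between shRNA-NC replicate 1 and shRNA-UBC9 replicate 3. These samples had the lowest relative depths, 1 and 0.945, and the part of depth was not tested. With the replicate number as a block 39 of the 45 genes passed the test, and FOXM1, PLK1, AURKA and AURKB missed it in addition to TTK and ESPL1. With 3 samples a group and unknown absolute depth, the missed threshold of TTK and ESPL1 does not show that their levels were equal.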
